A study of Mus musculus with 2 samples.

Results

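Integrins are the adhesion receptors with which leukocytes hold on to vessel walls, antigen-presenting cells, epithelium and matrix. Each is a pair of an alpha and a beta chain that share a membrane, and a chain without its partner is poorly carried to the cell surface. Talin and kindlin bind the beta tail and switch the receptor to its high-affinity form, so the amount of mRNA is only 1 of the layers that set adhesion. Expression of 9 integrin genes of leukocytes was examined in naive CD8+ T cells with and without the zinc-finger transcription factor Bcl11b: the alpha chain genes Itgal, Itga4, Itgae, Itga6 and Itgav, and the beta chain genes Itgb2, Itgb1, Itgb7 and Itgb3. They were taken by gene name from every non-control spot of the arrays, which gave 26 probes on 35 spots, of 41174 gene probes on 43379 spots in all.

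Both arrays carried RNA of CD8+ cells with low CD44 and low CD25, sorted to over 90% purity from mice of the C57BL/6 strain. The knockout mice were Bcl11bF/F/dLck-iCre, in which floxed Bcl11b alleles are cut by a recombinase under the distal Lck promoter, active late in T cell development; the other mice were wild type. On each array the knockout sample was labelled with Cy5 and the wild-type sample with Cy3. The labels name biological replicate 1 and 2 (arrays 1 and 2, n = 2 ratios) and give no age, no number of mice per sample and no Cre status of the wild type. The dyes were never swapped, and so genotype and a probe's dye effect cannot be told apart. In a sorted population, fewer cells of a type and less RNA per cell cannot be told apart either. With 2 ratios, an exact permutation test of a single probe by sign cannot give a p below 0.5, so tests were those of limma across all probes.

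The arrays differed in spread. Over the 11833 probes tested, log2 ratios had a standard deviation of 1.01 on array 1 and 0.40 on array 2, and they correlated with a Pearson r of 0.27 across probes, which are not independent replicates. Bcl11b itself stood below 0, at -1.45 and -1.73 with its brighter probe and at -0.35 and -2.32 with the other, neither past the test (limma adjusted p = 0.159 and 0.319). The brighter probe passed when both channels had to be well above background (adjusted p = 0.0299; range over the alternatives 0.0299 to 0.685), and its mean of -1.59 became -0.71 with median centring; no genome was used to set these probes against the floxed exon. Y-linked Ddx3y had ratios of 2.30 on array 1 and -2.04 on array 2, and X-linked Xist, by probe A_51_P145453, was well above background only in the knockout of array 2, at a ratio of 6.90. The samples on an array thus differed in sex-linked RNA, and in opposite ways on the 2 arrays for Ddx3y; its part in the integrin values was not tested. All 9 markers of CD8+ T cells examined, Cd8a, Cd8b1, Cd3d, Cd3e, Cd3g, Cd247, Lck, Cd2 and Cd5, were well above background in all 4 samples.

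No integrin probe passed the test for a difference between genotypes, and 1 probe of Itgb3 came nearest. A probe was tested if the knockout, or the wild type, was well above background on both arrays; 12 integrin probes met this, at least 1 for each of the 9 genes. Of these, 0 passed an adjusted p of 0.05 (limma, Benjamini-Hochberg over all 11833 probes) and 1 had an unadjusted p under 0.05. Over all probes tested, 0.262% passed, with 0.237% higher and 0.0254% lower in the knockout, and 10.2% had such an unadjusted p. Above 0 on both arrays stood 4 of the 12, where all probes gave 31.7%, and below 0 on both stood 1, where all probes gave 29.3%. The same sign on both arrays was thus seen in 5, where all probes gave 61%, and the remaining 7 had opposite signs. Over 2-fold either way stood 3 on array 1 (27.3% of all probes) and 1 on array 2 (2.46%). Their median log2 ratio was 0.15, beside 0.06 for all probes tested. The fit gave the integrin probes standard errors between 0.42 and 0.50 on the log2 scale, and the smallest mean ratio to pass was 2.03 in size, so changes well over 2-fold could still be missed. The other 14 probes were too dim for the test; 7 of them were well above background in no sample.

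**Figure D1:**
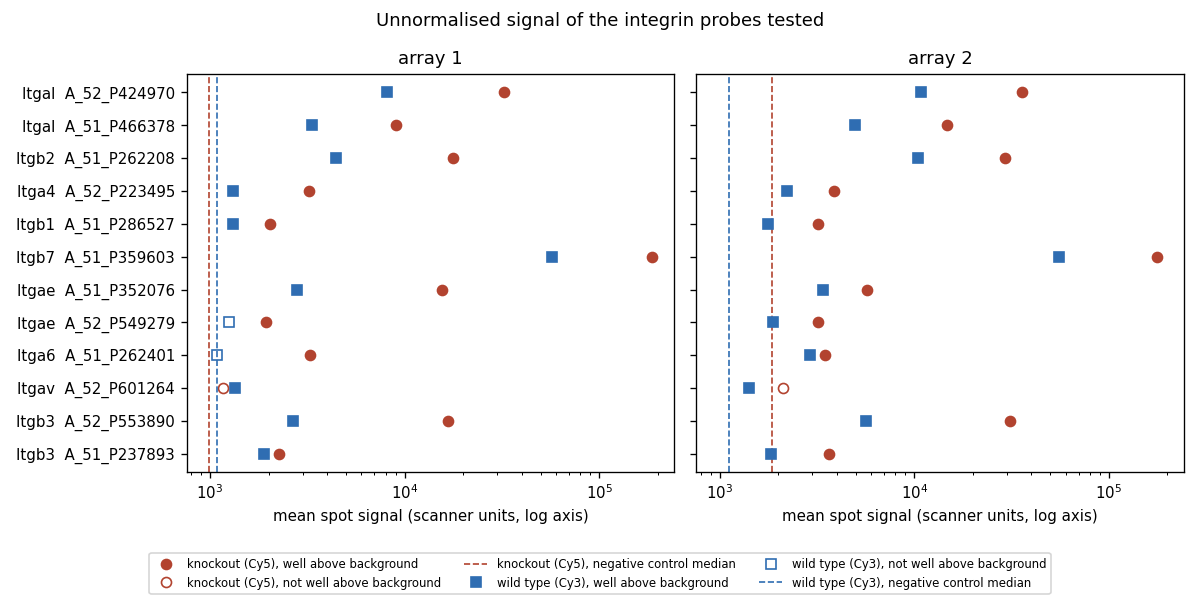
Mean spot signal (scanner units, log axis, before any normalisation) of the 12 integrin probes tested, in knockout (Cy5) and wild-type (Cy3) cells on array 1 and array 2; open symbols are not well above background and dashed lines are the median of the negative control spots in each channel. Itgb7 reads 187094 and 57331 on array 1, while the Itgav probe reads 1166 and 1349, near the controls at 985 and 1087.

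Local background was low, but spots meant to bind nothing still read 985 (knockout) and 1087 (wild type) on array 1, and 1865 and 1120 on array 2, as medians. By the scanner software's own flag, 9 of the 12 tested probes were well above background in all 4 samples, the exceptions being Itga6, Itgav and the dimmer Itgae probe. In the plot of unnormalised signals Itgb1, though it has this flag throughout, read only 1315 in wild type on array 1, not far from the controls. Red and green signals of a spot are on different scales before normalisation, so a higher Cy5 reading alone is not a higher level in the knockout.

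Itgal and Itgb2 encode the chains of LFA-1, the receptor for ICAM proteins with which T cells arrest on vessel walls and form synapses. The brighter Itgal probe, A_52_P424970 (mm8 chromosome 7, 127125992 to 127126051, plus strand), read 32446 and 35993 in the knockout and 8115 and 10777 in wild type on arrays 1 and 2. Its log2 ratios were 0.10 and 0.46, a mean of 0.28 ± 0.26 (SD, n = 2; 95% interval -0.61 to 1.17; limma adjusted p = 0.855). The second Itgal probe, A_51_P466378, lies 1198 bases upstream on the same strand and read 9044 and 14690 in the knockout against 3362 and 4971 in wild type. Its ratios were -0.29 and 0.46, with a mean of 0.08 ± 0.53. The probes thus gave the same ratio on array 2 and differed in sign on array 1. On array 2, 0.46 stood at percentile 92.0 and 91.9 of all probes tested, whereas on array 1 the ratios stood at percentiles 49.8 and 33.4.

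Itgb2, the beta chain that LFA-1 shares with the myeloid integrins Mac-1 and CD11c/CD18, had 1 probe (chromosome 10, 77008949 to 77009008, plus strand). It read 17667 and 29302 in the knockout and 4449 and 10430 in wild type. The log2 ratios of 0.20 and 0.23 were the closest pair among the tested integrins, with a mean of 0.21 ± 0.02 (SD, n = 2), a 1.16-fold difference. It did not pass (limma adjusted p = 0.894), and its 95% interval ran from -0.67 to 1.09, because limma's error of a probe is drawn towards that of all probes. With median centring in place of loess the Itgb2 mean was 1.15 (limma adjusted p = 0.398), or 0.49 above the median of all probes tested, where the loess value lay 0.15 above it. Of 10 macrophage and dendritic markers tested, 4 rose in the knockout, as given with Itgb3 below; their part in the Itgb2 value was not tested.

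**Figure D2:**
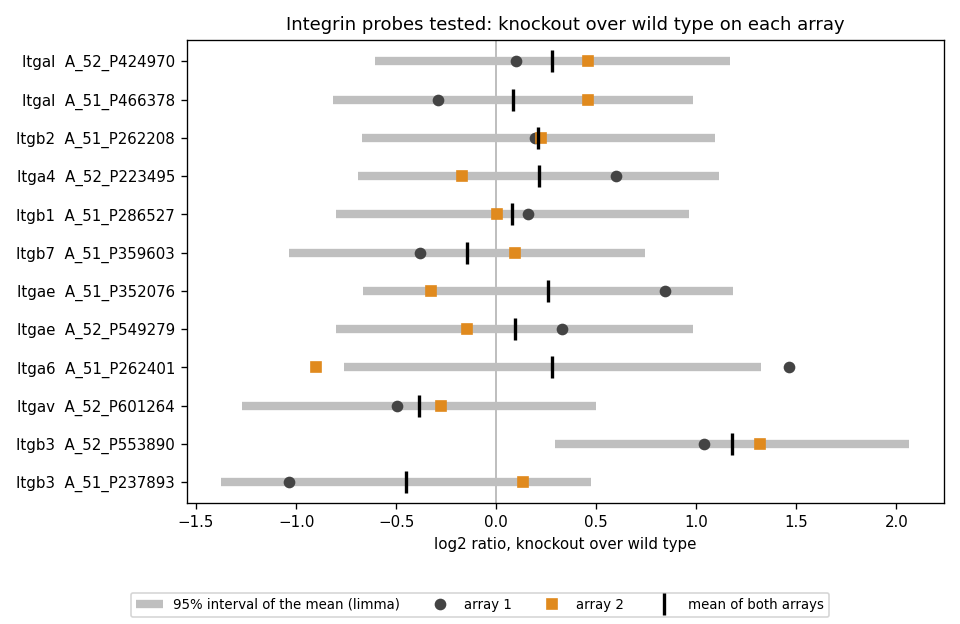
Log2 ratio of knockout over wild type for each of the 12 integrin probes tested: points are array 1 and array 2, the black tick is their mean and the grey bar its 95% interval from limma. Only the interval of the Itgb3 probe A_52_P553890 (0.29 to 2.06, before adjustment) lies off 0, and Itga6 has the widest gap between arrays (1.46 and -0.90).

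The alpha 4 chain pairs with beta 1 to form VLA-4, a receptor for VCAM-1 and fibronectin, and with beta 7 to form LPAM-1, the receptor for MAdCAM-1 that directs cells to gut. Of 6 Itga4 probes on chromosome 2, only A_52_P223495 (79131372 to 79131431, plus strand) was well above background in all 4 samples. It read 3207 and 3855 in the knockout and 1305 and 2221 in wild type. The log2 ratios were 0.60 and -0.17, opposite in sign (mean 0.21 ± 0.54, SD, n = 2; limma adjusted p = 0.895). Of the other 5 Itga4 probes, 3 were well above background only in the knockout of array 1, and 2 in no sample. One of these 3, A_52_P373392, designed on a neonatal thymus cDNA clone, read 3419 in that sample and 1773, 879 and 1089 in the knockout of array 2 and the wild types. Its ratios of 2.84 and -0.02 were a spike on array 1 that no other Itga4 probe shared: those ran from -0.36 to 0.60 there. The other probes of the 3 gave 0.14 and 0.14 (A_51_P400884) and 0.46 and 0.22 (A_52_P63892), while the probes above background in no sample gave -0.36 and -0.26 (A_52_P526816) and 0.55 and 0.24 (A_52_P545336). Set at a bound, since wild type was not well above background, A_52_P373392 would be at least 1.53-fold higher, open to dye bias and resting on 1 array.

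Itgb1, the common beta chain of the VLA family, was measured 10 times on each array by the probe A_51_P286527 (chromosome 8, 131618682 to 131618741, plus strand), which shows how well a spot repeats itself. Leaving out 3 outlier spots on array 1 and 2 on array 2, the spots read 1939 to 2143 in the knockout and 1294 to 1333 in wild type on array 1, and 3126 to 3279 and 1708 to 1815 on array 2. Log2 ratios of the spots were 0.16 ± 0.05 (SD over 7 spots) on array 1 and 0.002 ± 0.04 (SD over 8 spots) on array 2. Spots of 1 array share the same RNA, so their spread is a measure of the spot alone and not of the samples. The mean ratio was 0.08 ± 0.11 (SD, n = 2; 95% interval -0.80 to 0.96; limma adjusted p = 0.963). A second Itgb1 probe, well above background in the knockout of array 1 and the wild type of array 2, gave 0.38 and 0.03. The third, designed on the beta 1D splice form known from striated muscle, was well above background in no sample and gave -0.34 and 0.00.

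Itgb7, the beta chain of both gut-homing integrins of T cells, had 1 probe (chromosome 15, 102044053 to 102044112, minus strand), far above background in all 4 samples. It read 187094 and 177735 in the knockout and 57331 and 55484 in wild type. The log2 ratios were -0.38 and 0.09, with a mean of -0.14 ± 0.33 (SD, n = 2; 95% interval -1.03 to 0.75; limma adjusted p = 0.934). The sign of the mean depended on the scaling: when the loess curve, fitted across intensities, gave way to centring on the array's median, it was 1.01, and the median of all probes tested went up by 0.60.

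Itgae encodes CD103, the alpha chain that with beta 7 binds E-cadherin and holds CD8+ T cells in epithelium; it is also carried by naive CD8+ cells of mice. Both probes lie on chromosome 11, plus strand, across splice junctions by the array's coordinates, as they span 1459 bases (72961798 to 72963256) and 986 bases (72947929 to 72948914) of genome. The brighter, A_51_P352076, read 15482 and 5753 in the knockout and 2785 and 3409 in wild type. Its log2 ratios were 0.84 and -0.33 (mean 0.26 ± 0.83, SD, n = 2; limma adjusted p = 0.875). The dimmer, A_52_P549279, read 1939 and 3216 against 1253 and 1888 and gave 0.33 and -0.15, although wild type was well above background on array 2 only. Both probes were thus higher in the knockout on array 1 and lower on array 2.

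Itga6 showed the same split at a larger size. Its alpha 6 chain forms the laminin receptors VLA-6 and alpha 6 beta 4. The brightest of 3 probes, A_51_P262401 (chromosome 2, 71658755 to 71658814, plus strand), read 3251 and 3486 in the knockout and 1080 and 2913 in wild type, where array 1 was not well above background. Log2 ratios were 1.46 and -0.90, a mean of 0.28 ± 1.67 (SD, n = 2; limma adjusted p = 0.881). The other probes, the nearer of them 1779 bases upstream, were too dim for the test: A_52_P81270 gave 1.04 and -0.74, and A_52_P324934, well above background in no sample, gave 1.82 and -0.35. All 3 Itga6 probes therefore stood above 0 on array 1 and below 0 on array 2, but wild type on array 1 was well above background for none of them, so the size of the array 1 ratios is poorly determined. For A_51_P262401 the array 1 ratio was 0.76 with no background subtraction and 4.68 by the scanner software. A gap of over 1 was found in 3 of the 12 integrin probes tested, beside 24.6% of all probes tested. On array 2 the brightest probe stood at percentile 1.0 of all probes.

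**Figure D3:**
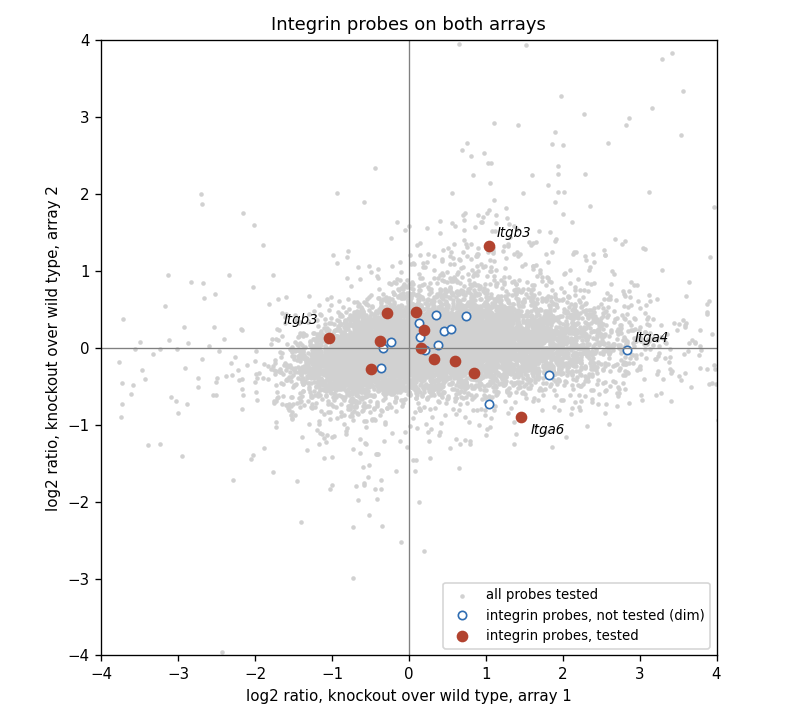
Log2 ratio of knockout over wild type on array 1 (x axis) against array 2 (y axis): grey points are the 11833 probes tested (32 lie outside the axes), filled red points the 12 integrin probes tested and open blue points the 14 dim ones. The cloud is wider along array 1, the brighter Itgb3 probe stands at 1.04 and 1.32, and Itga6 lies below the horizontal line at 1.46 and -0.90.

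The alpha V and beta 3 chains form the vitronectin receptor, which recognises the RGD motif of matrix proteins; beta 3 also pairs with Itga2b on platelets. Of 6 Itgav probes only A_52_P601264 (chromosome 2, 83570134 to 83570193, plus strand) was tested, and it was well above background in wild type only. It read 1166 and 2122 in the knockout and 1349 and 1407 in wild type, with log2 ratios of -0.50 and -0.28 (mean -0.39 ± 0.16, SD, n = 2; limma adjusted p = 0.801). As a bound it was at least 1.18-fold lower in the knockout. It was designed on an embryonic cDNA clone whose product the array annotation calls unclassifiable. None of the 5 other Itgav probes was below 0 on both arrays: the only one on the RefSeq mRNA was well above background in no sample, and the one with the brightest signal, A_51_P382484, gave 0.20 and -0.03. A_52_P102916, well above background only in the knockout of array 1, gave 0.13 and 0.32. The RefSeq probe gave -0.23 and 0.08, and A_52_P30341 and A_52_P86872, also above background in no sample, gave 0.36 and 0.43, and 0.75 and 0.42. The Itgav probes thus shared no direction.

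Itgb3 held the highest mean ratio among the 12 integrin probes tested, on 1 of its 2 probes. That probe, A_52_P553890, was designed on an embryonic gonad cDNA clone that the array annotation places under Itgb3, with an unclassifiable product (chromosome 11, 104486448 to 104486507, plus strand). It read 16772 and 31236 in the knockout and 2670 and 5686 in wild type, well above background throughout. Its log2 ratios were 1.04 and 1.32, so it stood over 2-fold higher in the knockout on both arrays, as did 1 of 12 integrin probes and 0.947% of all probes tested. The mean was 1.18 ± 0.20 (SD, n = 2), a 2.26-fold higher signal (95% interval 0.29 to 2.06; unadjusted p = 0.0116; limma adjusted p = 0.321). It stood at percentile 99.1 of all probes on array 2 and at 79.0 on the more variable array 1.

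The other Itgb3 probe, A_51_P237893, was designed on the RefSeq mRNA and lies 3182 bases upstream of it on the same strand (104483266 to 104483336). It was also well above background in all samples, though dim, at 2259 and 3647 in the knockout and 1904 and 1846 in wild type. Its log2 ratios were -1.03 and 0.13 (mean -0.45 ± 0.82, SD, n = 2; limma adjusted p = 0.786). The probes of Itgb3 therefore differed by 2.07 log2 units on array 1 and 1.19 on array 2, and the higher value belongs to the probe on the clone, not to the one on the coding mRNA.

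Some markers of other blood cells also differed between genotypes. The lists overlap: Itgax and Itgam also belong to the integrin subunits, and Itga2b, of the platelet list, does too; Fcer1g and Tyrobp are known in myeloid cells as well as NK cells. Of 13 macrophage and dendritic markers, 11 and 9 were well above background in the knockout on arrays 1 and 2, and 1 and 4 in wild type; their summed normalised signal was 28840 and 30278 in the knockout and 7181 and 15949 in wild type. Adgre1, C1qc, Csf1r and Itgax rose in the knockout, among 10 tested. Over all probes 0.237% passed as higher, and no marker of the list passed as lower (limma). Wild type was well above background on neither array for Adgre1, C1qc and Csf1r. As bounds these were at least 3.70-fold, 4.37-fold and 1.93-fold higher. Of the 10, 8 were above 0 on both arrays, where all probes gave 31.7%. Cd14 was below 0 on both (-0.40 and -0.08), where all probes gave 29.3%, and Lyz2 was at 4.03 and -0.38. Itgam and Cd68 were well above background nowhere. The NK list gave 8 and 9 of 9 markers in the knockout and 4 and 5 in wild type, with summed signals of 87564 and 181496 against 51093 and 65170. Fcer1g, Cd244a, Klrb1c and Tyrobp rose among 8 tested, where the share over all probes was 0.237%. Of the 8, 7 were above 0 on both arrays, where all probes gave 31.7%. Klrk1, Eomes (0.63 and 0.74) and Nkg7 (0.50 and 0.53) did not pass. Nor did Ncr1, which was at -0.20 and 0.86 and well above background in 3 of 4 samples. For Fcer1g and Cd244a wild type was well above background on neither array, and for Klrb1c on array 2 only. As bounds, Fcer1g and Cd244a were at least 20.6-fold and 6.45-fold higher. Of 11 platelet markers, 0 of 3 tested passed, and 5 and 1 were well above background in the knockout and 4 and 3 in wild type. Their sums were 6033 and 6348 against 8977 and 6975, and Gp9, Gp1ba, Gp6, Pf4 and Ppbp were well above background nowhere. The 3 tested were below 0 on both arrays: Gp1bb (-1.71 and -0.57), Treml1 (-0.95 and -0.31) and Itga2b (-0.49 and -0.16). Of 4 markers of CD4+ T cells, 0 of 2 tested passed, Cd4 (-0.65 and -0.21) and Cd40lg (-0.39 and -0.08). Of 9 B cell markers, 7 and 5 were well above background in the knockout and 2 and 6 in wild type. Their sums were 15275 and 15666 against 11443 and 14108, and 0 of 6 tested passed. Above 0 on both arrays were 4, among them Blnk (2.23 and 0.59), Ms4a1 (1.28 and 0.38) and H2-Ab1 (2.04 and 0.35). Below 0 on both were 2, among them Cd22 (-0.71 and -0.56), and Cd79a was nowhere above background. The granulocyte and mast cell sums were 20779 and 12523 in the knockout against 6839 and 18036 in wild type, higher on array 1 and lower on array 2. Of 4 tested, 0 passed. Mpo (-0.43 and -0.32) and Cxcr2 (-0.48 and -0.15) were below 0 on both arrays. S100a9, named after its values were seen, was at 2.86 and -0.71. The only erythroid marker tested, Hba-a1, was at 2.56 and 0.30 and did not pass. The part of these cells in the values of Itgb3, Itgb2, Itga6, Itgae and the other integrins was not tested.

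Among the integrin subunits outside this set, Itgax, which encodes the alpha chain CD11c, rose in the knockout. It read 2876 and 12947 there and 932 and 1770 in wild type, with log2 ratios of 2.29 and 2.26 (limma adjusted p = 0.0166), wild type being well above background on array 2 only. Of 17 such subunits 16 were on the array under the names used and 5 could be tested: 1 rose, none fell and 4 did not pass. Itga2b, the platelet partner of beta 3, was at -0.49 and -0.16, and the laminin receptor chain Itga3 at -0.42 and -0.09. The median of the 5 was -0.09. The myeloid chain Itgam and the collagen receptor chain Itga1 were well above background in no sample.

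Of 14 ligand genes 5 could be tested and none passed (median log2 ratio 0.008). Vcam1, the ligand of VLA-4, was at 1.41 and 1.55 and at least 2.28-fold higher in the knockout, wild type not being well above background on either array (limma adjusted p = 0.207). Icam4 was at -0.69 and -0.19. Thy1, a surface glycoprotein of T cells that integrins can bind, was at 0.17 and 0.81, and Icam1, the main ligand of LFA-1, at -0.33 and -0.01. Their dimmer tested probes differed from these in sign, on array 1 for Thy1 (-0.21 and 0.51) and on both arrays for Icam1 (0.31 and 0.31).

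Of 27 genes of the machinery that switches integrins on, 24 could be tested and none passed (median 0.07). Prkd2, a kinase downstream of diacylglycerol, was at -0.96 and -0.41, and Rap1gap, which turns off the GTPase Rap1, at -0.80 and -0.33. The adaptor Skap2 was at 0.41 and 0.70. Itgb1bp1, which binds the beta 1 tail and limits its activation, was at 0.36 and 0.35. Above 0 on both arrays stood 4 of the 24, where all probes gave 31.7%, and below 0 on both stood 9, where all probes gave 29.3%. The rest had opposite signs on the arrays. High on array 1 alone were, for example, the Rap1 effector Apbb1ip (2.62 and -0.05) and the kinase Stk4 (2.34 and -0.33), both named after their values were seen. For both, wild type on array 1 was not well above background. Of 22 genes of signalling from adhesion sites 13 were tested and none passed (median -0.10): Src was at -0.56 and -0.37, the adaptor Crk at 1.02 and 0.20, Crkl at 1.04 and 0.16, and Ilk, the integrin-linked kinase, at 0.26 and 0.18.

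Integrins that contain alpha V release TGF-beta from its latent form, and TGF-beta in turn raises Itgae in T cells, so the genes of this axis were listed with them. Of 3 tested, Tgfb3 rose (2.59 and 2.66; limma adjusted p = 0.0049; at least 2.81-fold higher, as wild type was not well above background). The other 2, outside the rule for naming genes, were Tgfb1, the main form in lymphocytes, at -0.17 and 0.38, and Runx3, a factor that promotes Itgae in CD8+ cells, at 1.78 and -0.02. Itgax is itself 1 of the 4 macrophage and dendritic markers that rose, and the part of the cells named above in the values of Tgfb3 and Itgax was not tested. Over the 5 lists 2 genes passed, and in 7 of 9 other ways of processing the data 1 or none did. Among these ways, the filter for both channels well above background left Itgax and Tgfb3 untested.

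**Figure D4:**
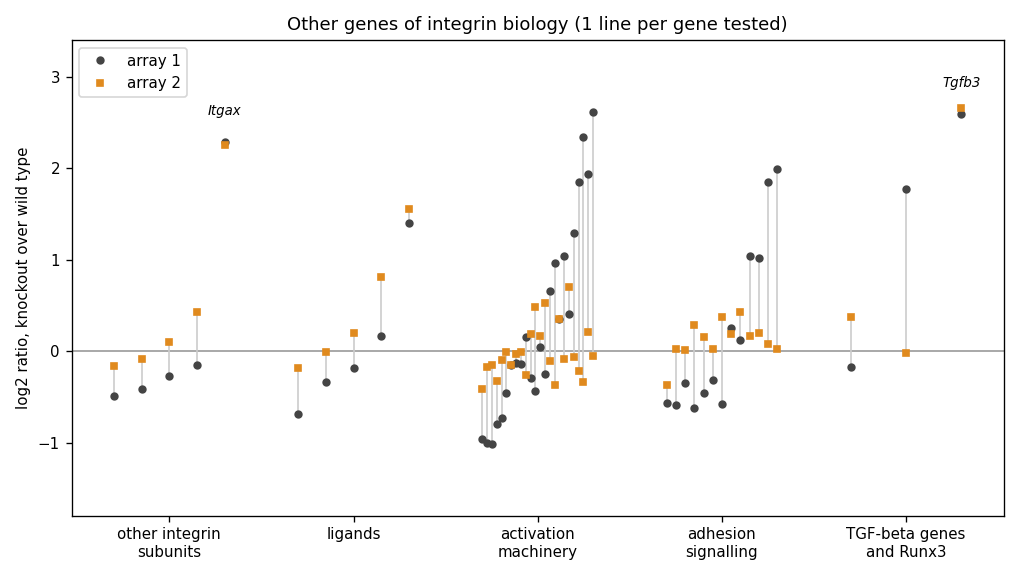
Log2 ratio of knockout over wild type on array 1 and array 2 for each tested gene of 5 related lists, a vertical line joining the arrays of a gene and genes ordered by their mean. The 2 named genes, Itgax (2.29 and 2.26) and Tgfb3 (2.59 and 2.66), passed the test, and the line of Apbb1ip runs from 2.62 to -0.05.

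Set side by side as receptors, the chains of LFA-1 were at 0.46 (both Itgal probes) and 0.23 (Itgb2) on array 2, those of VLA-4 at -0.17 (Itga4) and 0.002 (Itgb1), and those of CD103 with beta 7 at -0.33 (Itgae, brighter probe) and 0.09 (Itgb7). On array 1 the LFA-1 chains were at 0.10 and -0.29 (Itgal) and 0.20 (Itgb2), those of VLA-4 at 0.60 and 0.16, and those of CD103 at 0.84 and -0.38. Pairs were not tested as units.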

How the data were processed

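Per the labels' protocols, RNA was extracted with Trizol and columns and went through linear amplification (Agilent kit) before ULS labelling (Kreatech kit). Per the submitters' processing notes, the scans passed through Feature Extraction 9.5.3.1 from Agilent. The deposited files give linear intensity values per spot (mean signal and median local background) with no normalisation, and the software's log10 ratios of Cy5 over Cy3, per the file headers. The deposited value table held the same log10 ratios to within 0.005.

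Background was corrected with normexp (offset 50) and log2 ratios normalised by loess within arrays in limma 3.58.1 (R 4.3.3), with control and outlier spots at weight 0 and then left out. Spots of a probe were averaged. Probes whose knockout channel, or whose wild-type channel, was well above background on each array were tested two-sided with lmFit and eBayes at an adjusted p of 0.05. Each probe was tested, not 1 per gene; the fit was tested on simulated ratios. "At least N-fold" compares channel values after loess and Aquantile with the lowest signal well above background. It takes no account of measurement error or dye bias and is not a confidence limit. Positions come from the array design, which uses mm8 per the file headers; exons were not annotated.

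All 26 probes of the members are reported. From each other list, the brightest tested probe of up to 4 genes that passed is named, then genes whose 2 ratios share a sign, ranked by the smaller ratio. Listed genes were named by accession or symbol in the RefSeq table of GRCm38.p6. The members and lists were chosen with earlier results of these data known. Alternatives changed background, normalisation, filter, probe choice, variance model and arrays. The labels do not say how many mice gave a sample, so p-values measure the spread between these arrays.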

Additional observations from a re-analysis of the deposited data

How the results depend on the processing

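Integrin probes passing numbered 0 under every alternative tried in limma, with 0 to 2 at an unadjusted p under 0.05. Changes of filter, probe choice or variance model left the ratios of single probes as they were. Their direction was thus fixed, and only their standard errors and p-values, unadjusted and adjusted, could move. The 102 mean ratios for single integrin probes from both arrays under the alternatives include those fixed in direction, so their count overstates stability. Of the 102, 98 kept their direction and their side of the threshold. The other 4 changed sign without passing, and the cause was not tested: Itga6 A_51_P262401 at -0.0097 with ratios scaled to the same spread, Itgal A_51_P466378 at -0.15 with the scanner software's log ratio, and Itgb3 A_51_P237893 at 0.11 and Itgb7 at 1.01 with median centring, which raised the median of all probes by 0.60. With 1 array left out, which allows no test, the 7 probes of opposite sign on the arrays took the sign of the array kept. The Itgb3 probe A_52_P553890 ran from 1.04 to 2.09, with adjusted p from 0.169 to 0.685. The median integrin ratio was 0.27 with background from negative control spots and 0.85 with median centring, and 0.0472 to 0.178 with 1 array left out (no test). Over the whole array the 31 probes that passed became 11 with background from negative controls, 17 with no background subtraction, 1 with median centring, 50 with both channels well above background, 138 with the brightest probe of each gene (115 higher, 23 lower) and 296 with a variance trend; none passed with ratios scaled (0, with 1033 at an unadjusted p under 0.05), no filter (0, with 3651) or the software's ratio (0, with 512). The genes passing in the 5 related lists went from 2 to 1 with background from negative controls and to 0 with no background subtraction, median centring, scaled ratios, no filter, both channels well above background or the software's ratio (1 to 9 at an unadjusted p under 0.05). With both channels well above background, Itgax and Tgfb3 were left out by the filter and so were not tested. No paired analysis was possible because each ratio already pairs the samples of 1 array. Signal over background limits Itgav, Itgb1 and most Itga4 probes.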
